A study of Homo sapiens with 6 samples.

Results

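The SLC25 genes encode the mitochondrial carrier family. They were taken as every protein-coding row of the normalized count table whose symbol is SLC25A followed only by digits, which gave 42 genes of 22794 listed genes, 14221 of them protein-coding. The cells were CAL-51, an established breast carcinoma line, from which poly(A) RNA was sequenced after sorting on p27, itself after transfection with a plasmid that carries a p27-mVenus reporter. There were 3 p27-positive and 3 p27-negative libraries, all from the same line and the same transfection design. The design text places the sort after the transfection, and libraries of untransfected cells are not analysed here, so p27 state and a response to transfected DNA or the fusion protein cannot be told apart. p27 is the cyclin-dependent kinase inhibitor of the gene CDKN1B.

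Carriers of this family sit mostly in the inner mitochondrial membrane, which small polar molecules cannot cross by themselves. Each protein is built from repeats of one carrier fold and exchanges a particular substrate between matrix and cytosol: ADP for ATP, phosphate, citrate and other carboxylates, amino acids, nucleotides, coenzymes, iron or glutathione. In growing cells they feed respiration on the matrix side and supply citrate, aspartate and other building blocks to the cytosol. Mitochondrial iron import and glutathione import are also carried by this family, and both bear on the iron-dependent lipid peroxidation of ferroptosis, which the series title names.

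The normalized counts implied 22216934 to 28609257 reads per library assigned to listed genes. No label ties the 3 libraries of a group to separate cultures, and p-values therefore reflect the spread among 6 libraries, part or all of which may be technical. Markers of breast epithelium were mixed: the keratin genes KRT8 (86970 against 57174 mean normalized counts, p27-positive against p27-negative) and KRT18 (33722 against 28793) were abundant and EPCAM was present (590 against 725), while CDH1, the E-cadherin gene, was nearly unread (a mean of 4.55 against 0 in all p27-negative libraries). Among markers of leukocytes, endothelium and stroma, CD3E and LYZ had no row, PECAM1 had means of 3.32 and 2.97 normalized counts, and PTPRC had 15.8 and 24.2. VWF (1626 against 686), COL1A1 (189 against 79.7) and PDGFRA (21.1 against 4.16) were higher in p27-positive libraries, and the 5 markers with a row summed to 1834 to 1891 normalized counts in p27-positive and 780 to 806 in p27-negative libraries. Most of this was VWF, and without it the markers summed to 190 to 248 in p27-positive and 92.4 to 127 in p27-negative libraries. Their part in the results below was not tested. KRT19, another keratin gene, was at 24864 against 7546.

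The promoters of 4 carriers are shown because these genes span the changes described below: SLC25A5 and SLC25A33 were lower in p27-positive cells, and SLC25A1 and SLC25A42 were higher. Each run holds 250 bases before and 50 bases after the RefSeq start site, 5′ to 3′ on the gene's strand (build GRCh38.p14). Capitals mark matches on either strand to CCAAT, the CCAAT box bound by NF-Y, or to CACGTG, the E-box bound by MYC and related factors. The windows are chrX:119468194-119468493 (plus strand) for SLC25A5, chr1:9539215-9539514 (plus strand) for SLC25A33, chr22:19178687-19178986 (minus strand) for SLC25A1 and chr19:19063744-19064043 (plus strand) for SLC25A42.
SLC25A5: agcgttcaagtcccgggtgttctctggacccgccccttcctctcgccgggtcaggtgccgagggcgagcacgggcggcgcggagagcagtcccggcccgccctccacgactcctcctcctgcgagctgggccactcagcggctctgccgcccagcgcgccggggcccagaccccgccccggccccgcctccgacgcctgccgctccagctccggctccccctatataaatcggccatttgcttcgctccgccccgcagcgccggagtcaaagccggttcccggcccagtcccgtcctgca
SLC25A33: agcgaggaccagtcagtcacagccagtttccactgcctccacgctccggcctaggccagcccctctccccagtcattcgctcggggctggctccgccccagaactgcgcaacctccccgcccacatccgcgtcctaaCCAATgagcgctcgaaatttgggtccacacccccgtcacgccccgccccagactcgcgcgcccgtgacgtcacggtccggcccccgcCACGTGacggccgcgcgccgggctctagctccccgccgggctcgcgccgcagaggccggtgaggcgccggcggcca
SLC25A1: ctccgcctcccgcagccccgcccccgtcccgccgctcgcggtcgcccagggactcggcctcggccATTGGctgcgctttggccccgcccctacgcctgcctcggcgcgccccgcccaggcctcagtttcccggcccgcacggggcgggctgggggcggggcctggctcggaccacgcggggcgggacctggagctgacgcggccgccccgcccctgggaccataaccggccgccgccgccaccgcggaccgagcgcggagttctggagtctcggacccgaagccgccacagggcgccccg
SLC25A42: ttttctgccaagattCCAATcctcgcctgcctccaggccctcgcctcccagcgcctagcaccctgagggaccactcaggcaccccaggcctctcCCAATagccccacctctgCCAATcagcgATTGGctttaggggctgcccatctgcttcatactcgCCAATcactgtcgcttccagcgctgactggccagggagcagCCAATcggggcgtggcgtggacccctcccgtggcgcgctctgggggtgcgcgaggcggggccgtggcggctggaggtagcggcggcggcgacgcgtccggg

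The SLC25A42 promoter held 6 CCAAT matches, SLC25A1 and SLC25A33 held 1 each, SLC25A33 also held 1 E-box, and SLC25A5 had none of the letters searched in this window. RefSeq promoters were found for 35 of the 42 carriers, 5 of which had more than 1 start site, and a gene was counted if any of its starts had a match. CCAAT was present in 20 of the 35 (57.1%), against 43.2% of 10237 tested protein-coding genes and 34.6% of all 35116 promoters. CACGTG was present in 8 (22.9%), against 12.6% of tested protein-coding genes and 7.26% of all promoters. Of the carriers with a promoter, CCAAT was present in 9 of 11 that rose, 9 of 16 that fell and 1 of 7 that did not pass, and in SLC25A21, which was not tested. The share with CCAAT among all genes that rose or fell was not computed, so these counts show no link between the motif and a direction. Of all genes tested 25.5% rose and 27.1% fell. The NRF-1 motif, named for a regulator of respiratory genes, occurred in 3 carriers (8.57%, against 13.4% of tested protein-coding genes and 5.78% of all promoters). The SREBP letters TCACNCCAC occurred in 1 carrier, SLC25A40 (2.86%, against 1.48% and 1.13%), and the E2F letters TTTCGCGC in 1, SLC25A14 (2.86%, against 1.15% and 0.515%). The second E2F form TTTGGCGC (1.37% and 0.652%) and TCAAGGTCA of the estrogen-related receptors (0.264% and 0.353%) occurred in 0. All motifs were searched on both strands, no motif contains another, and a match is a description of letters and not of binding.

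Most carriers differed between the groups, in both directions. Of the 41 carriers whose mean normalized count reached 10, 13 were higher and 17 lower in p27-positive libraries by limma with Benjamini-Hochberg adjustment over 15950 genes at 0.05, and 11 did not pass. The 30 called carriers are 73.2% of those tested, against 52.6% of all genes tested. The family is well expressed, and with a minimum mean of 50 the shares were 80.6% of carriers (29 of 36) and 63.2% of all genes. By direction, 31.7% of carriers were higher against 25.5% of all genes, and 41.5% were lower against 27.1%. The groups did not overlap in 31 of 41 carriers (75.6%), against 57.7% of all genes. In these bulk samples fewer cells of a kind and less RNA per cell cannot be told apart.

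On a log2(normalized count + 1) scale, p27-positive minus p27-negative, the carriers' median log2 fold change was -0.13, against 0.03 over all genes. This scale understates the change of low genes. The split depended on scaling. Scaled to the library total, which moved the median of all genes by 0.13, 14 carriers were higher and 12 lower and their median was 0.0042. Of 15980 genes tested there, 5360 were higher and 3114 lower. With upper-quartile rescaling, which moved the median of all genes by 0.11, 14 carriers were higher and 14 lower (5156 and 3267 of 15977 genes). With quantile normalization 14 carriers were higher and 16 lower (3850 and 4008 of 15950 genes). The largest move, 0.21 in the median of all genes, came when the upper quartile was taken over the genes above 0 in each library. It gave 16 carriers higher and 6 lower with a median of 0.078. Of 15998 genes tested there, 6158 were higher and 2501 lower with a median of 0.24, so higher calls outnumbered lower ones over all genes too. Across 16 other settings (scalings, filters, pseudocounts, priors, the FPKM table and each library left out), 18 of the 30 called carriers passed in the same direction every time, 8 higher and 10 lower. The 8 were SLC25A1, SLC25A23, SLC25A29, SLC25A35, SLC25A42, SLC25A44, SLC25A45 and SLC25A53. The 10 were SLC25A4, SLC25A5, SLC25A10, SLC25A11, SLC25A15, SLC25A22, SLC25A24, SLC25A28, SLC25A33 and SLC25A40. Under the upper quartile over genes above 0, which is not one of those 16, all 8 stayed higher, but 4 of the 10 lost their call: SLC25A4 (-0.12; limma, adjusted p = 0.13), SLC25A10 (-0.21; adjusted p = 0.12), SLC25A11 (-0.10; adjusted p = 0.16) and SLC25A40 (-0.24; adjusted p = 0.053). That scaling moved the median of all genes upward by 0.21, so mainly lower calls could be lost under it. The share of all called genes that kept their call is not given here.

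**Figure D1:**
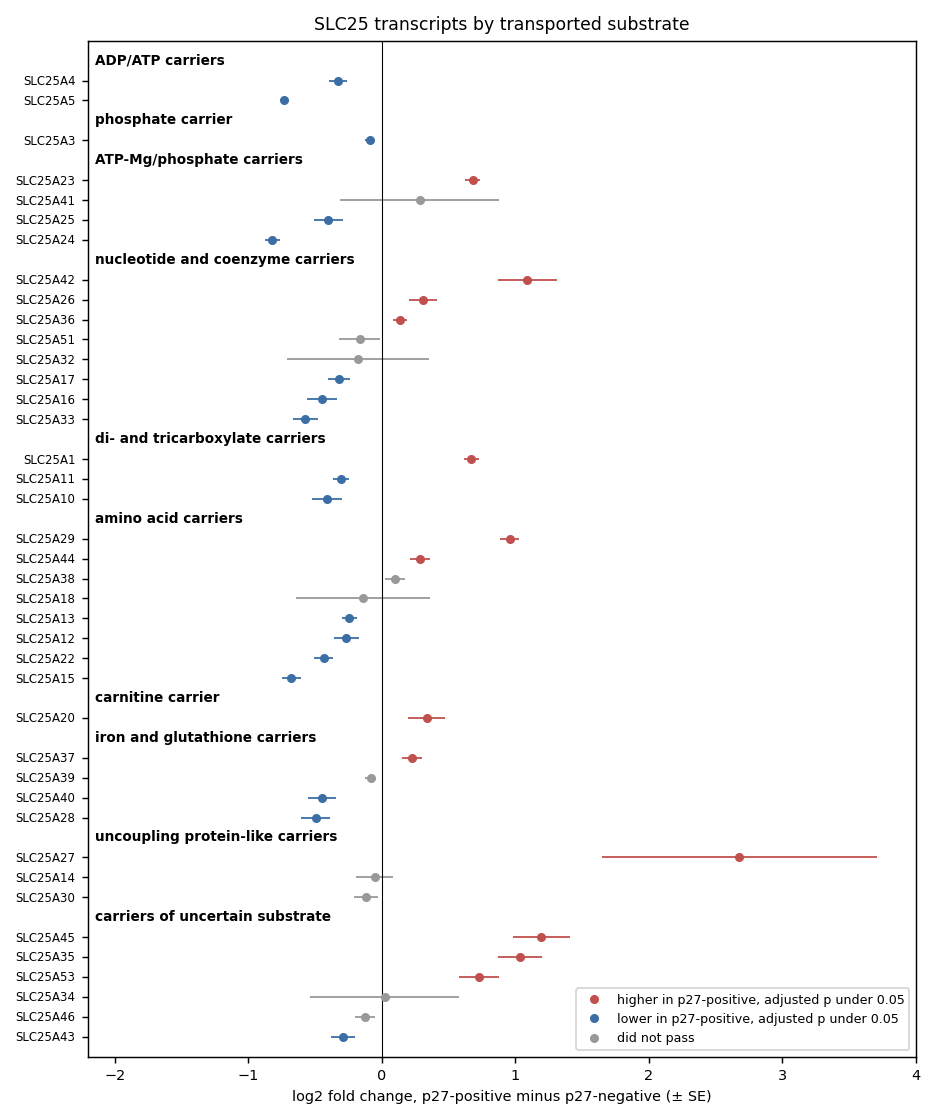
Log2 fold change with SE of 40 SLC25 genes, p27-positive minus p27-negative libraries (n = 3 each), grouped by substrate, with red for higher and blue for lower at an adjusted p under 0.05 and grey for the rest. Both ADP/ATP carriers analysed here sit to the left of 0, while most other groups hold carriers on both sides.

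Per length, 1 gene stood far above the others. SLC25A5 (chromosome X, 119468422 to 119471396) is the ADP/ATP carrier isoform of growing cells. Positions are in hg38, the build that the submitters' processing notes name. It had 456 FPKM in p27-positive and 692 FPKM in p27-negative libraries, 47.7% and 59.7% of the FPKM summed over the 42 genes. In p27-positive libraries SLC25A1 (74.9 FPKM), SLC25A39 (71.9), SLC25A3 (59.5) and SLC25A11 (30.6) followed, and in p27-negative libraries SLC25A39 (69.6), SLC25A3 (57.8), SLC25A1 (42.9) and SLC25A11 (34.6). SLC25A1 and SLC25A39 did not differ beyond their spread in p27-positive libraries, where SLC25A1 ran from 68.9 to 82.2 FPKM and SLC25A39 from 71.5 to 72.2. SLC25A29 ranked 13th by FPKM in p27-positive and 23rd in p27-negative libraries, and SLC25A23 ranked 7th and 12th. The 6 genes under 1 FPKM in both groups were SLC25A41 at 0.528 and 0.407, SLC25A34 at 0.306 and 0.267, SLC25A18 at 0.265 and 0.247, SLC25A27 at 0.259 and 0.0289, SLC25A32 at 0.249 and 0.255, and SLC25A21 at 0.057 and 0.0589 FPKM in p27-positive and p27-negative libraries.

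**Figure D2:**
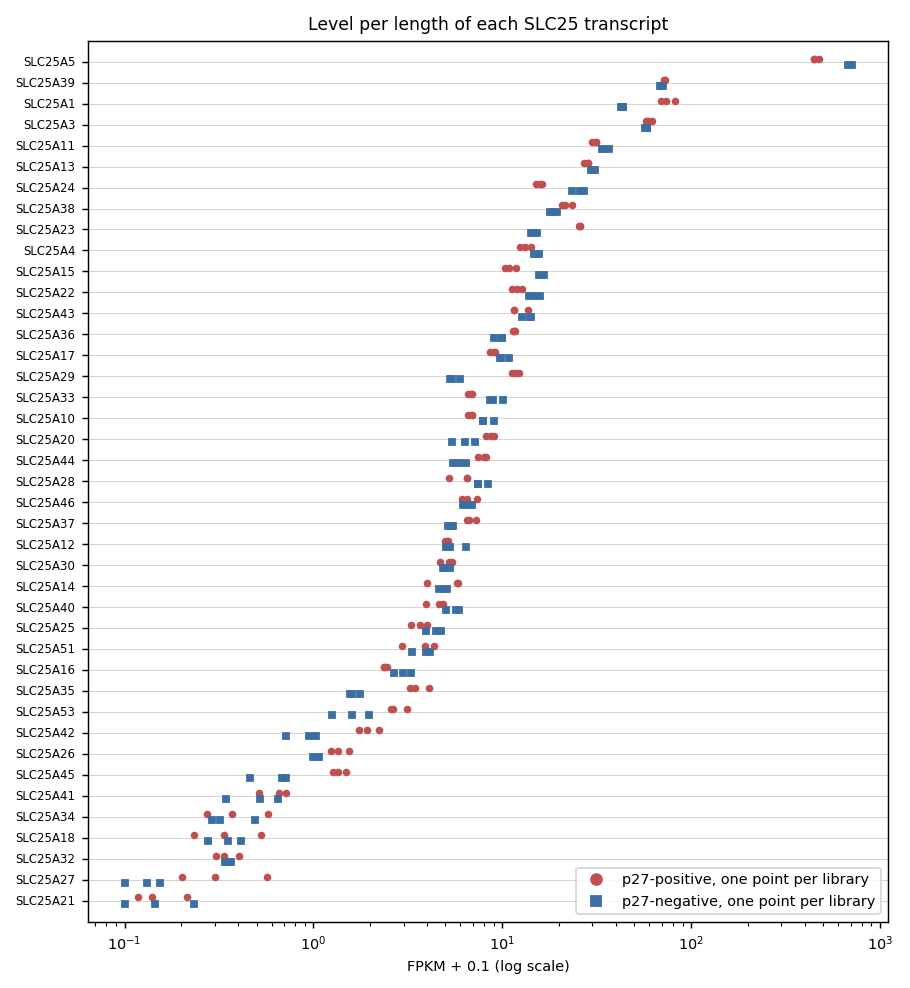
FPKM + 0.1 of 41 SLC25 genes on a log scale, with 1 point per library (red circles p27-positive, blue squares p27-negative), ordered by mean level. SLC25A5 lies far above the rest at 456 FPKM in p27-positive and 692 FPKM in p27-negative libraries.

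The summed FPKM of the family was 969, 945 and 954 in p27-positive libraries, against 1178, 1163 and 1138 in p27-negative libraries. All p27-positive sums lay below all p27-negative ones (exact two-sided permutation test, p = 0.1, the smallest that 3 against 3 allows). Without SLC25A5 the order turned, with 496, 498 and 507 against 468, 470 and 464 FPKM (exact permutation p = 0.1). On the other scale the order did not turn: summed normalized counts without SLC25A5 differed by -2353, p27-positive minus p27-negative.

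The 2 ADP/ATP carriers analysed here, SLC25A5 and SLC25A4, were lower in p27-positive cells. SLC25A5 had 17242, 16004 and 16141 normalized counts in p27-positive libraries, against 28085, 27439 and 26580 in p27-negative libraries. No value of the groups came near the other group, and the gene fell 1.66-fold (log2 fold change -0.73 ± 0.03 SE; limma, adjusted p = 5.3e-23). The size of this p-value depended on the setting, and the largest limma adjusted p over the 16 other settings was 7.9e-04. Its antisense transcript SLC25A5-AS1 overlaps 15.1% of its exon bases in GENCODE 29 but was low (69.6 against 81.2 mean normalized counts), and 3 of its 9 pseudogenes are listed, with 11.9 normalized counts in sum.

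SLC25A4 (chromosome 4, 185143266 to 185150382), the isoform typical of muscle and heart, had 1477, 1360 and 1566 normalized counts in p27-positive libraries, against 1814, 1908 and 1791 in p27-negative libraries. It fell by less (log2 fold change -0.33 ± 0.07; limma, adjusted p = 6.6e-05), and the groups did not overlap. This call was lost with the upper quartile over genes above 0 (-0.12; limma, adjusted p = 0.13). As a share of the FPKM of both isoforms, SLC25A4 held 2.69%, 2.67% and 3.04% in p27-positive and 2.04%, 2.20% and 2.13% in p27-negative libraries (exact permutation p = 0.1, the smallest possible). SLC25A6 and SLC25A31, the other members of this group, are not analysed here.

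SLC25A3 (chromosome 12, 98593591 to 98606379) imports the phosphate that ATP synthase uses. It had 12894, 12107 and 11891 normalized counts in p27-positive libraries, against 13203, 13162 and 12865 in p27-negative libraries, and the groups overlapped. The small decrease (log2 fold change -0.09 ± 0.03; limma, adjusted p = 0.024) had the opposite sign under each other scaling run, at 0.12 with the upper quartile over genes above 0 (limma, adjusted p = 0.0026), 0.041 with the library total, 0.023 with upper-quartile rescaling, 0.041 in the FPKM table and 0.10 with quantile normalization, where it passed upward (limma, adjusted p = 0.0062).

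The calcium-regulated ATP-Mg/phosphate carriers, which set the adenine nucleotide content of the matrix, differed in direction. SLC25A24 (chromosome 1, 108134043 to 108200849) had 2481, 2514 and 2352 normalized counts in p27-positive libraries, against 4603, 4409 and 3978 in p27-negative libraries. It was the largest decrease of the family at 1.77-fold (log2 fold change -0.82 ± 0.05; limma, adjusted p = 1.4e-16). Its largest limma adjusted p over the 16 other settings was 0.0012. SLC25A23 (chromosome 19, 6436079 to 6465203) had 2950, 2869 and 2904 normalized counts in p27-positive libraries, against 1753, 1878 and 1808 in p27-negative libraries. It rose (log2 fold change 0.68 ± 0.06; limma, adjusted p = 1.6e-13).

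By FPKM, SLC25A23 was the higher of the pair in p27-positive libraries and SLC25A24 in p27-negative ones. The log2 ratio of SLC25A24 to SLC25A23, on FPKM + 0.1, was -0.71, -0.65 and -0.76 in p27-positive libraries and 0.93, 0.76 and 0.67 in p27-negative libraries, a difference of -1.49 (exact permutation p = 0.1; 0.17 adjusted over 10 pairs). SLC25A25 also fell (log2 fold change -0.40 ± 0.11; limma, adjusted p = 0.002), a call lost in the FPKM table (-0.26; limma, adjusted p = 0.079) and with the upper quartile over genes above 0 (-0.20; adjusted p = 0.13). Its antisense gene SLC25A25-AS1 overlaps 13.5% of its exon bases and rose by 0.46. SLC25A41, which lacks the calcium-binding part, had 16.1 to 23.4 normalized counts in p27-positive and 10.3 to 23.1 in p27-negative libraries and did not pass.

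**Figure D3:**
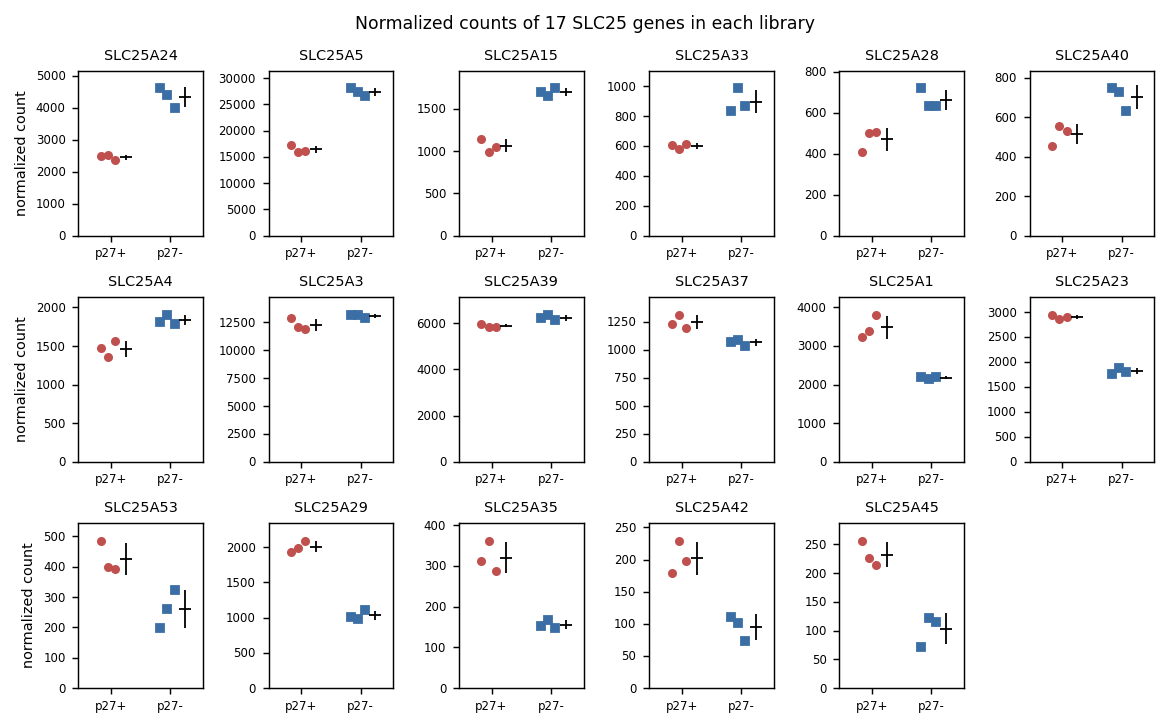
Normalized counts of 17 SLC25 genes in each library, with p27-positive (red circles) left of p27-negative (blue squares) and the mean ± SD beside each group (n = 3). Panels run by log2 fold change from SLC25A24 (-0.82) to SLC25A45 (1.19), and SLC25A3 alone of these 17 has overlapping groups. Most were chosen for a limma adjusted p under 0.05 and a log2 fold change of at least 0.5 in size, which favours separated groups. The rest were chosen as ADP/ATP, phosphate, iron or glutathione carriers. Over all genes tested the groups did not overlap in 57.7%.

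Of 3 tested carriers of carboxylates SLC25A1 rose and SLC25A10 and SLC25A11 fell, where 25.5% of all genes rose and 27.1% fell. SLC25A1 (chromosome 22, 19175581 to 19178739) exports citrate, the carbon source of cytosolic fatty acid and sterol synthesis. It had 3229, 3395 and 3815 normalized counts in p27-positive libraries, against 2202, 2148 and 2199 in p27-negative libraries. All p27-positive values were above all p27-negative ones, a 1.59-fold rise (log2 fold change 0.67 ± 0.06; limma, adjusted p = 3.4e-13). SLC25A10, which exchanges malate and succinate for phosphate, fell (log2 fold change -0.41 ± 0.11; limma, adjusted p = 0.0021), and SLC25A11, the oxoglutarate and malate carrier, fell (-0.31 ± 0.06; limma, adjusted p = 4.5e-05). The calls of SLC25A10 and SLC25A11 were lost with the upper quartile over genes above 0 (-0.21 and -0.10; limma, adjusted p = 0.12 and 0.16). SLC25A11 shares 9.14% of its exon bases with RNF167 on the other strand. SLC25A21, the oxoadipate carrier, had 2.01, 12.5 and 4.34 normalized counts in p27-positive libraries, against 5.34, 0 and 16.0 in p27-negative libraries. It was the only carrier below the filter.

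Of 8 tested amino acid carriers 2 were called higher and 4 lower, against 25.5% and 27.1% of all genes. With the library total 3 were higher and 2 lower, against 5360 and 3114 of 15980 genes. SLC25A29 (chromosome 14, 100291116 to 100306547), a carrier of basic amino acids such as arginine and lysine, had 1935, 1988 and 2092 normalized counts in p27-positive libraries, against 1004, 984 and 1108 in p27-negative libraries. It rose 1.94-fold (log2 fold change 0.96 ± 0.07; limma, adjusted p = 3.9e-15). SLC25A15 (chromosome 13, 40789412 to 40812460), the ornithine carrier of the urea cycle, had 1146, 993 and 1049 normalized counts in p27-positive libraries, against 1701, 1650 and 1744 in p27-negative libraries. It fell (log2 fold change -0.68 ± 0.07; limma, adjusted p = 1.3e-10).

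SLC25A44, a carrier of branched-chain amino acids, rose (log2 fold change 0.29 ± 0.08), and the glutamate carrier SLC25A22 fell (-0.44 ± 0.07). Its paralogue SLC25A18 was low, at 14.4 to 46.9 and 21.1 to 37.7 normalized counts in p27-positive and p27-negative libraries, and did not pass. The aspartate-glutamate carriers SLC25A12 (-0.27 ± 0.09) and SLC25A13 (-0.24 ± 0.05) serve the malate-aspartate shuttle and fell by similar amounts. Their within-library log2 ratio differed by -0.02 (exact permutation p = 0.8). Both calls were lost when scaled to the library total, at -0.14 (limma, adjusted p = 0.24) and -0.11 (limma, adjusted p = 0.074). SLC25A13 lost its call also with quantile normalization (-0.096; limma, adjusted p = 0.13), and SLC25A12 without p27-negative replicate 1 (-0.16; limma, adjusted p = 0.21). SLC25A12 lost it too with upper-quartile rescaling (-0.15; limma, adjusted p = 0.18), in the FPKM table (-0.13; 0.32) and with no trended prior (0.11). With the upper quartile over genes above 0, SLC25A12 (-0.061; limma, adjusted p = 0.62) and SLC25A13 (-0.038; 0.58) did not pass. SLC25A38, a glycine carrier needed for heme synthesis, was at 0.10 ± 0.07 and did not pass, but passed upward under each other scaling run: the FPKM table (0.23; limma, adjusted p = 0.0185), the library total (0.23; 0.0078), upper-quartile rescaling (0.21; 0.014), quantile normalization (0.21; 0.016) and the upper quartile over genes above 0 (0.30; 5.8e-04).

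Of 4 iron and glutathione carriers 1 was called higher and 2 lower, against 25.5% and 27.1% of all genes. With quantile normalization 2 were higher and 2 lower (3850 and 4008 of 15950 genes). With the upper quartile over genes above 0, 2 were higher and 1 lower (6158 and 2501 of 15998 genes). The mitoferrins SLC25A28 and SLC25A37 import iron, SLC25A37 mainly in red cell precursors and SLC25A28 in other tissues. SLC25A28 (chromosome 10, 99610519 to 99622793) had 407, 503 and 504.4 normalized counts in p27-positive libraries, against 720, 634 and 636 in p27-negative libraries, and fell 1.41-fold (log2 fold change -0.50 ± 0.11; limma, adjusted p = 1.8e-04). SLC25A37 (chromosome 8, 23528956 to 23575463) had 1224, 1312 and 1193 normalized counts in p27-positive libraries, against 1070, 1089 and 1030 in p27-negative libraries. It rose 1.17-fold (log2 fold change 0.22 ± 0.08; limma, adjusted p = 0.011), a call lost without p27-positive replicate 2 (0.18; limma, adjusted p = 0.072).

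The log2 FPKM ratio of SLC25A28 to SLC25A37 was -0.35, -0.16 and -0.01 in p27-positive libraries and 0.64, 0.44 and 0.52 in p27-negative libraries (difference -0.71; exact permutation p = 0.1, 0.17 adjusted over 10 pairs). Per length SLC25A37 was the higher of both in every p27-positive library, by little in the third, and the lower in every p27-negative one.

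SLC25A39 (chromosome 17, 44319625 to 44324870) imports glutathione. It had 5965, 5849 and 5852 normalized counts in p27-positive libraries, against 6219, 6376 and 6127 in p27-negative libraries. Its difference of -0.08 ± 0.04 on the log2 scale did not pass (limma, adjusted p = 0.076), although the groups did not overlap. Its sign turned with the library total (0.047), with upper-quartile rescaling (0.028), in the FPKM table (0.047), with quantile normalization (0.094; limma, adjusted p = 0.036) and with the upper quartile over genes above 0 (0.12; limma, adjusted p = 0.01). Its paralogue SLC25A40 (chromosome 7, 87833568 to 87876360) had 457, 558 and 530 normalized counts in p27-positive libraries, against 747, 727 and 634 in p27-negative libraries. It fell 1.36-fold (log2 fold change -0.45 ± 0.11; limma, adjusted p = 4.1e-04), a call lost with the upper quartile over genes above 0 (-0.24; limma, adjusted p = 0.053). SLC25A40 shares 2.79% of its exon bases with DBF4, a replication gene on the other strand that fell by 1.11 on the log2 scale, and the strand setting of the counting is not given in the sources used here. The log2 ratio of SLC25A39 to SLC25A40 differed by 0.36 (exact permutation p = 0.1, 0.17 adjusted over 10 pairs). Without p27-positive replicate 1 it differed by 0.27 and without p27-negative replicate 1 by 0.31, and the groups then gave an exact permutation p of 0.2 each time.

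**Figure D4:**
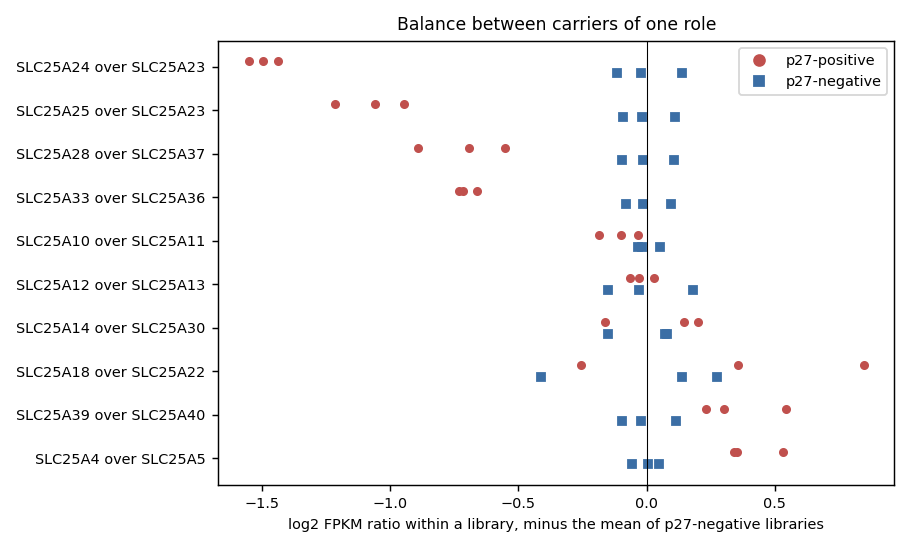
Log2 ratio of FPKM + 0.1 between carriers of one role within each library, minus the mean of the p27-negative libraries (red circles p27-positive, blue squares p27-negative). In 6 of 10 pairs the groups do not overlap, most widely for SLC25A24 over SLC25A23 at a difference of -1.49 (exact permutation p = 0.1; 0.17 adjusted over 10 pairs). Of all single genes tested, 57.7% had groups that did not overlap, and a share over gene pairs was not computed.

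Of 9 tested nucleotide and coenzyme carriers 3 were called higher and 3 lower, shares near the 25.5% and 27.1% of all genes. Without p27-positive replicate 1 or p27-negative replicate 1 only 1 was called higher. Of all genes tested, 3502 of 15877 and 3894 of 16071 were then higher. SLC25A33 (chromosome 1, 9539465 to 9585173), a pyrimidine nucleotide carrier, had 609, 579 and 613 normalized counts in p27-positive libraries, against 836, 986 and 868 in p27-negative libraries. It fell 1.49-fold (log2 fold change -0.57 ± 0.09; limma, adjusted p = 1.6e-06). The other pyrimidine nucleotide carrier, SLC25A36, rose slightly (0.13 ± 0.05; limma, adjusted p = 0.036), a call lost without any of 4 libraries in turn (p27-positive replicate 1, 2 or 3 or p27-negative replicate 1; limma, adjusted p = 0.11, 0.053, 0.061 and 0.21). With no trended prior it was lost too (limma, adjusted p = 0.12). The log2 ratio of SLC25A33 to SLC25A36 differed by -0.70 (exact permutation p = 0.1, 0.17 adjusted over 10 pairs).

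SLC25A42 (chromosome 19, 19063994 to 19113030), which takes coenzyme A into the matrix, had 179, 229 and 197 normalized counts in p27-positive libraries, against 111, 101 and 73.1 in p27-negative libraries. It rose 2.12-fold (log2 fold change 1.09 ± 0.22; limma, adjusted p = 5.2e-05). SLC25A26, the carrier of S-adenosylmethionine, was called higher (0.31 ± 0.11), but 15.5% of its exon bases overlap LRIG1 on the other strand, which rose by 0.78, so the value is uncertain, and the call was lost in the FPKM table (limma, adjusted p = 0.11), without p27-positive replicate 1 (0.21; adjusted p = 0.15) and without p27-negative replicate 1 (0.27; adjusted p = 0.051). With no trended prior this call was lost too (limma, adjusted p = 0.068). SLC25A16, which has been linked to coenzyme A, fell (-0.45 ± 0.11), a call lost in the FPKM table (-0.31; limma, adjusted p = 0.0502) and with the upper quartile over genes above 0 (-0.24; adjusted p = 0.068). The peroxisomal SLC25A17 fell (-0.32 ± 0.08), a call lost with the library total (-0.19; limma, adjusted p = 0.052) and with the upper quartile over genes above 0 (-0.12; adjusted p = 0.25).

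The NAD carrier SLC25A51 was at -0.17 ± 0.15 and did not pass. SLC25A32, linked to folate and FAD, had 26.2, 17.3 and 20.0 normalized counts in p27-positive libraries, against 24.9, 22.3 and 24.0 in p27-negative libraries. It lies across DCAF13 on the other strand (2571 against 3222 mean normalized counts), with 11.1% of its exon bases shared. Whether this overlap bears on its low level was not tested. SLC25A20 exchanges carnitine for acylcarnitine and so carries fatty acids to oxidation. It was called higher (0.34 ± 0.14; limma, adjusted p = 0.04), a call lost with quantile normalization (0.21; limma, adjusted p = 0.21) and without p27-positive replicate 1 or 3 or p27-negative replicate 2 or 3 (limma, adjusted p = 0.095, 0.12, 0.062 and 0.20). The call was lost too with no expression filter (limma, adjusted p = 0.052) and with no trended prior (0.082).

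The remaining increases were in carriers of less certain substrate and low level. SLC25A45 (chromosome 11, 65375192 to 65383701) had 256, 226 and 214 normalized counts in p27-positive libraries, against 72.1, 122 and 115 in p27-negative libraries, and rose 2.25-fold (log2 fold change 1.19 ± 0.21; limma, adjusted p = 8.5e-06). SLC25A35 (chromosome 17, 8287763 to 8295400) had 312, 362 and 287 normalized counts in p27-positive libraries, against 151, 168 and 147 in p27-negative libraries, and rose 2.06-fold (log2 fold change 1.03 ± 0.17; limma, adjusted p = 1.4e-06). RANGRF on the other strand covers 33.2% of the SLC25A35 exon bases and did not pass (-0.15; 91.1 against 96.4 mean normalized counts). SLC25A53 (chromosome X, 104099214 to 104157009) had 486, 399 and 392 normalized counts in p27-positive libraries, against 199, 260 and 322 in p27-negative libraries, and rose 1.63-fold (log2 fold change 0.73 ± 0.15; limma, adjusted p = 8.3e-05).

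SLC25A43 fell (-0.29 ± 0.09), a call lost under 5 settings, among them the library total (-0.16; limma, adjusted p = 0.13) and no trended prior (adjusted p = 0.059). SLC25A46, an outer-membrane protein of mitochondrial shape (-0.13 ± 0.07), and SLC25A34 (0.02 ± 0.56) did not pass. Of the carriers that resemble uncoupling proteins, SLC25A14 (-0.05 ± 0.14) and SLC25A30 (-0.12 ± 0.09) did not pass. SLC25A27, a carrier best known from brain, had 36.2, 15.3 and 7.81 normalized counts in p27-positive libraries, against 2.67, 0 and 4.57 in p27-negative libraries. It passed the filter only through the p27-positive libraries, its log2 fold change was 2.68 ± 1.03 (limma, adjusted p = 0.027), and without p27-positive replicate 1 it fell below the filter. The call was also lost without p27-positive replicate 2 (2.73; limma, adjusted p = 0.088) and without p27-negative replicate 2, where the gene was unread (1.95; limma, adjusted p = 0.072). With quantile normalization (1.78; limma, adjusted p = 0.13) and with no trended prior (0.053) SLC25A27 did not pass either.

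**Figure D5:**
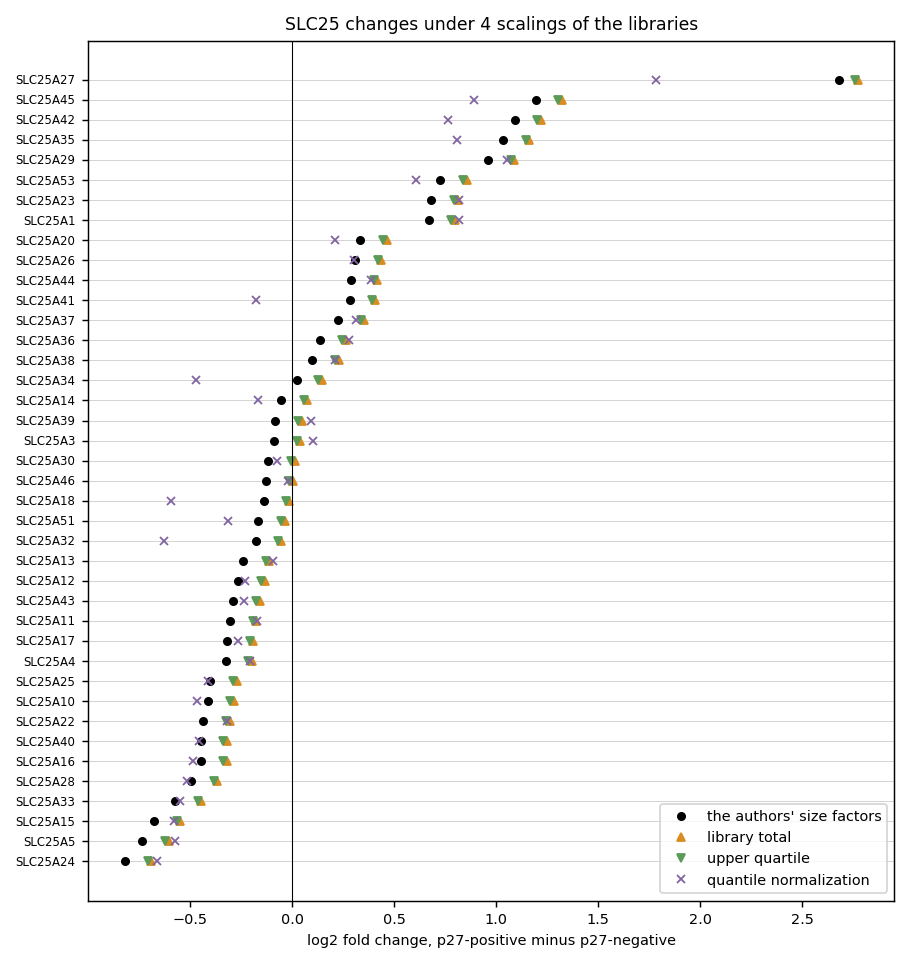
Log2 fold change of 40 SLC25 genes, p27-positive minus p27-negative, under the authors' size factors, library total, upper quartile and quantile normalization. SLC25A3, SLC25A39, SLC25A14, SLC25A30, SLC25A46, SLC25A34 and SLC25A41 cross 0 with the scaling. SLC25A5 stays between -0.73 and -0.57 and SLC25A29 between 0.96 and 1.09. The upper quartile over genes above 0 is not shown.

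Carriers are brought into mitochondria by a set of import proteins. They cross the outer membrane through the TOM complex, are kept soluble by small TIM chaperones and are inserted by the TIM22 complex. Of 15 tested import genes 11 fell and 2 rose, against 27.1% lower and 25.5% higher of all genes tested, and their median was -0.39 against 0.03. TOMM40, the outer-membrane pore, was at 3708 ± 16.4 against 6382 ± 442 normalized counts (p27-positive against p27-negative, SD, n = 3 each), and the chaperone gene TIMM10 at 893 ± 33.6 against 1787 ± 99.9. TIMM10 fell by 0.999 ± 0.07, TOMM40 by 0.78 ± 0.05 and the receptor gene TOMM22 by 0.65 ± 0.05 on the log2 scale. TIMM10B rose (0.44 ± 0.10). TOMM7 was called higher (0.28 ± 0.07), but its groups overlapped, with 1889, 1721 and 1905 normalized counts in p27-positive and 1354, 1450 and 1753 in p27-negative libraries, and the call was lost with no trended prior (limma, adjusted p = 0.10). TIMM8B and TIMM29 did not pass. With the library total 10 fell and 2 rose, and with the upper quartile over genes above 0, 8 fell and 4 rose. Over all genes the library total gave 3114 lower and 5360 higher of 15980. The upper quartile over genes above 0 gave 2501 lower and 6158 higher of 15998.

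Of 12 other transporters of the mitochondrial membranes 8 fell and 1 rose, against 27.1% lower and 25.5% higher of all genes, and their median was -0.34 against 0.03. With the library total 6 fell and 2 rose (3114 and 5360 of 15980 genes). With the replicate block or without any 1 library 7 fell and 1 rose. Over all genes 4330 fell and 4065 rose with the replicate block. Without 1 library 3993 to 4141 fell and 3502 to 3954 rose. The pore genes VDAC3 (-0.56 ± 0.05), VDAC2 (-0.53 ± 0.05) and VDAC1 (-0.41 ± 0.04) fell and the sideroflexin gene SFXN3 rose (0.46 ± 0.09). Of the family's proteins named otherwise, the uncoupling protein gene UCP2 rose (2045 ± 90.6 against 1425 ± 52.3 normalized counts; 0.52 ± 0.06), while MTCH2 (-0.21 ± 0.05) and MTCH1 (-0.14 ± 0.04), genes of outer-membrane proteins, fell, calls lost with the library total, where MTCH2 was at -0.078 and MTCH1 at -0.012. MTCH1 had the opposite sign with quantile normalization (0.022). UCP3 was below the filter. Of 4 enzymes of the malate-aspartate shuttle, GOT2 (-0.52 ± 0.04), MDH1 (-0.27 ± 0.05) and MDH2 (-0.17 ± 0.04) fell and GOT1 (-0.03) did not pass, where 27.1% of all genes fell. With the library total 2 of the 4 fell (3114 of 15980 genes) and with quantile normalization 1 (4008 of 15950 genes). MDH2 was at -0.044 with the library total, and at 0.03 with the upper quartile over genes above 0.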

How the data were processed

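Poly(A) RNA of 6 CAL-51 libraries, 3 p27-positive and 3 p27-negative, was measured with a stranded kit, per the labels' protocols. STAR, featureCounts, DESeq2 and build hg38 are named in the submitters' processing notes. The sources used here do not give versions, the annotation release or the strand setting. The signal values of the first deposited table are, per the file headers, DESeq2 normalized counts, that is reads per gene over a size factor. The second deposited table holds FPKM, per the file headers. All values of the first table were whole multiples of 1 step per library (tolerance 1e-06, relative above 1 step), from which read totals were taken.

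limma 3.58.1 in R 4.3.3, two-sided with a trended prior, was fitted to log2(normalized count + 1) in 15950 genes (mean of 10 or more across the 6 libraries). The group was the sole model term and p-values had Benjamini-Hochberg adjustment. Single values were compared by exact two-sided permutation of libraries. The fit was also run on simulated counts of 15444 genes, with 100 genes changed at each of 2 sizes. It recovered 72% at a log2 fold change of 0.5 and 97% at 1, with 4 false calls. The simulation gave every gene the same dispersion and changed far fewer genes than the 52.6% called here. Its rates may therefore not hold for these data.

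Alternatives were a pseudocount of 0.5 or 5, no filter or a minimum of 50, other scalings, a replicate block, a prior with no trend, each library left out in turn, and the FPKM table (log2(FPKM + 0.1), minimum mean 0.5). Upper-quartile rescaling was first computed over the genes above 0 in each library. After that result was seen it was replaced by the upper quartile of the same tested genes in every library, and both forms are reported. Values in every library are given for carriers past an adjusted p of 0.05 with a log2 fold change of at least 0.5 in size and a mean of at least 50, and for ADP/ATP, phosphate, iron and glutathione carriers. For each pathway list the text names up to 3 genes per direction by p. The members and lists were chosen with earlier results of these data known, and SLC25A21, SLC25A27, SLC25A32, the motifs, the share over tested protein-coding genes and the 4 printed promoters after values were seen. Exon overlaps were computed from GENCODE 29 (GRCh38), in which all 42 carriers have exons, and pseudogenes were counted there by symbol. The values of 1 tested carrier, which counts over the family include, are not reported here.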

Additional observations from a re-analysis of the deposited data

How the results depend on the processing

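The planned count tests, edgeR and DESeq2, were not run, because reads recovered from the size-factor steps were not accepted by the unit check for 1 library. The same-numbered libraries shared only a number (correlations of deviations 0.009, -0.00051 and 0.011), and the replicate block gave 13 carriers higher and 17 lower and 4065 and 4330 genes. Upper-quartile rescaling was changed after its result was seen: taken over genes above 0 in each library it gave 16 carriers higher and 6 lower, and taken over the same tested genes 14 and 14, nearer to the 13 and 17 reported. Over all genes these forms gave 6158 higher and 2501 lower, and 5156 higher and 3267 lower. The first form is given as an alternative added after seeing the data. Leaving out a library gave 9 to 12 carriers higher and 16 to 17 lower. Over all genes it gave 3502 to 3954 higher and 3993 to 4141 lower, against 4067 and 4318 with all 6 libraries. No trended prior gave 9 carriers higher and 15 lower (3340 and 3579 of 15950 genes). Why calls moved was not tested.

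The sign turned in these cases (log2 fold changes, p27-positive minus p27-negative). With the library total SLC25A3 was at 0.041, SLC25A39 at 0.0468, SLC25A14 at 0.0754, SLC25A30 at 0.0135, SLC25A46 at 0.00421 and the carriers' median at 0.00421. In the FPKM table SLC25A3 was at 0.0409, SLC25A39 at 0.0467, SLC25A14 at 0.0745, SLC25A30 at 0.0133 and SLC25A46 at 0.00419. With upper-quartile rescaling SLC25A3 was at 0.0227, SLC25A39 at 0.0285 and SLC25A14 at 0.0572. With quantile normalization SLC25A3 was at 0.103, SLC25A39 at 0.0944, MTCH1 at 0.0224, SLC25A34 at -0.471 and SLC25A41 at -0.178. With the upper quartile over genes above 0, SLC25A3 was at 0.115, SLC25A39 at 0.121, SLC25A14 at 0.149, SLC25A30 at 0.0875, SLC25A46 at 0.0782, SLC25A18 at 0.057, SLC25A32 at 0.0178, SLC25A51 at 0.0367, MTCH1 at 0.0619, MDH2 at 0.0304 and the carriers' median at 0.0782.

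Leaving out single libraries, the SLC25A12 to SLC25A13 log2 ratio ranged over -0.0967 to 0.0687 and that of SLC25A14 to SLC25A30 over -0.0146 to 0.173. The log2 fold change ranged over -0.0221 to 0.527 for SLC25A41, -0.549 to 0.27 for SLC25A18, -0.346 to 0.356 for SLC25A34 and -0.153 to 0.126 for SLC25A14. The summed FPKM of all members but SLC25A5 turned to a difference of -2353 when normalized counts were summed. With 3 libraries a group no exact permutation test can go below 0.1.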
